A study of Drosophila melanogaster with 75 samples.

Results

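The 9 genes described here act in the molecular pathway through which a fly learns from courtship: *dnc*, *rut*, *amn*, *Nf1*, *Pka-C1*, *CaMKII*, *CrebB*, *orb2* and *Fmr1*. They were chosen by name, and a probe set stood for a gene only where the array annotation assigns it to that gene alone. By this rule, 7 of the 9 genes had a probe set, 11 probe sets in all, out of 11981 genes with 13646 probe sets assigned to 1 gene. No probe set was assigned to *CaMKII* or *Pka-C1* alone, and both were not analysed here. *orb2* had a further probe set that is shared with another gene and was not used.

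RNA was extracted from whole male heads of the isogenized Canton-S strain. The males were 5 days old and had been kept in individual vials since the day before. The males were exposed to a virgin female and mated, to a cauterized virgin female (courted), or to no female fly (control), and a male of each group was collected 2 hrs after the mated male had finished copulation. Pools of 30 heads made 5 arrays per group, 15 in all, on Affymetrix Drosophila Genome 2.0 arrays. A whole head holds eyes, fat body and muscle beside the brain. The number of arrays limits the precision, and fewer cells of a type and less RNA per cell cannot be told apart in such pools.

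A male fly that has courted an unreceptive female courts less afterwards, and this memory depends on the mushroom bodies of the brain. In mushroom body neurons, the adenylyl cyclase encoded by *rut* makes cAMP when calcium and a neuromodulator arrive together, and the phosphodiesterase encoded by *dnc* breaks it down. cAMP releases the catalytic subunit of protein kinase A, encoded by *Pka-C1*, while CaMKII responds to calcium at the synapse. Longer-lasting memory needs new transcripts, which the factor encoded by *CrebB* promotes or represses depending on its isoform, and new protein at the synapse, which the RNA-binding proteins encoded by *orb2* and *Fmr1* regulate. The *amn* gene encodes a neuropeptide precursor, and *Nf1* encodes a Ras GTPase-activating protein that also affects cAMP levels. Mutations of many of these genes impair associative learning in flies.

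Intensities are given as log2 of the GC-RMA values that the authors computed in R/Bioconductor, unless another algorithm is named. Levels of different probe sets are not comparable with each other. A probe set was tested when its mean intensity over the arrays compared was above 100. Over the 15 arrays, 40.7% of all probe sets were above this threshold, and so were 6 of the 11 probe sets of the genes. Counted by the brightest probe set, 4 of the 7 genes were above it, namely *dnc*, *rut*, *Fmr1* and *Nf1*, with 6 of their 7 probe sets. The other 3, *amn*, *CrebB* and *orb2*, were below it. In the dChip PM values, with their threshold of 50, 82.8% of all probe sets passed and so did 10 of the 11 probe sets of the genes. By gene, 6 of the 7 passed, all but *amn*.

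One array stood apart. On each array, control probe sets target the 5' and the 3' end of the actin, eIF-4a and GAPDH transcripts, and the mean of their 3 differences (5' minus 3', log2) is called the 5'-3' index here. The index was -4.35 on the array of courted replicate 4 and lay between -1.64 and -0.93 on the other 14 arrays. The eIF-4a 5' probe set had a level of 8.37 there, against 12.31 to 13.37 elsewhere, while the 3' probe set lay between 14.37 and 14.57 on all 15. Of the 7631 probe sets above the threshold, 39.5% had their lowest or highest value of the 15 on this array, against 2.8% to 28.7% on the others. Fold changes that involve courted males are therefore given with all arrays and without replicate 4. Of 6 neuronal markers with a probe set of their own, *elav*, *brp* and *para* were below the threshold. The log2 of the summed intensity of the 6 lay between 13.31 and 13.63 in control, 13.34 and 13.57 in courted and 13.45 and 13.64 in mated male heads. For 6 markers enriched in the mushroom bodies, 5 of them above the threshold, these ranges were 13.64 to 13.90, 13.72 to 13.90 and 13.70 to 13.84. Such sums weigh bright probe sets most. In mated against control male heads, the median log2 fold change of the tested markers was 0.13 for neurons, 0.06 for mushroom bodies and 0.12 for glia. It was 0.15 for haemocytes, 0.05 for muscle, 0.03 for fat body and -0.01 for photoreceptors. The shares of cell types were not tested.

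*dnc*, the cAMP phosphodiesterase, varied more between arrays in GC-RMA than almost any other probe set above the threshold, and its groups overlapped widely. Its levels on the 5 arrays of control male heads were 8.31, 7.84, 8.81, 9.82 and 8.80. Courted male heads had 8.85, 8.87, 7.50, 6.93 and 9.50, and mated male heads had 8.58, 8.25, 8.09, 9.20 and 8.50. The highest level, in control replicate 4, was 7.38-fold above the lowest, in courted replicate 4, and without that array the range was still 4.98-fold. The SD over the 15 arrays was 0.75, larger than that of 98.8% of the probe sets above the threshold, whose median was 0.126. Without courted replicate 4 it was 0.63, larger than that of 98.7%. The spread was smallest in mated male heads (SD 0.43, n = 5) and larger in control (0.74) and courted male heads (1.07), and these spreads were not tested against each other. In dChip PM, the SD was 0.30 in mated, 0.41 in control and 0.54 in courted male heads.

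The mean level of *dnc* was 8.52 in mated and 8.72 in control male heads, which gave -0.19 as the log2 fold change (SE 0.17, 95% interval -0.60 to 0.21, adjusted p = 0.70 in limma), with higher values in mated males in 2 of 5 pairs. With 1 replicate left out, it ran from -0.344 (without replicate 2) to -0.063 (without replicate 3). Courted male heads had a mean of 8.33, which gave -0.38 as the log2 fold change against control (SE 0.59, adjusted p = 0.988 in limma). The interval ran from -1.79 to 1.02, so that a fold change of 0.29 or of 2.03 lay within its bounds. Without the replicate 4 pair, the sign turned, with 0.24 (SE 0.38, interval -0.70 to 1.18), and without the courted array alone, in a fit with no pairs, it was -0.04 (SE 0.45). Between mated and courted males, the log2 fold change was 0.19 (SE 0.46) with all arrays and -0.33 (SE 0.25, interval -0.96 to 0.31) without replicate 4. The size of the *dnc* differences that involve courted males, and their sign in these paired fits, rested on replicate 4. By dChip PM, *dnc* lay between 8.66 and 9.98 on the 15 arrays, and the log2 fold change of mated against control males was 0.01 (SE 0.08).

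**Figure D1:**
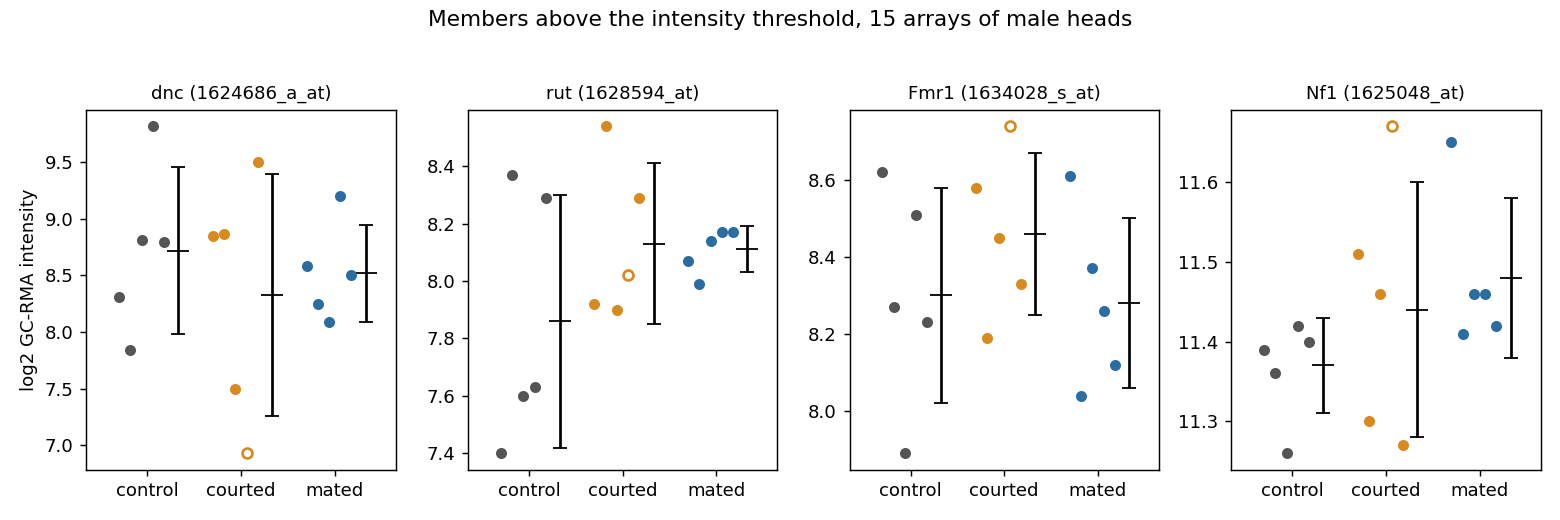
log2 GC-RMA intensity (vertical axis, a separate scale for each gene) of *dnc*, *rut*, *Fmr1* and *Nf1* on each array of control, courted and mated male heads, with replicates 1 to 5 from left to right and the group mean and SD (n = 5) as a bar. The open circle is courted replicate 4, which has the lowest *dnc* and the highest *Fmr1* and *Nf1* level, and the groups overlap for each gene.

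*rut*, the calcium-responsive adenylyl cyclase that works against *dnc*, had higher mean levels in courted and mated than in control male heads, and neither difference passed the adjusted threshold. The 5 control arrays had levels of 7.40, 8.37, 7.60, 7.63 and 8.29, the 5 courted arrays 7.92, 8.54, 7.90, 8.02 and 8.29, and the 5 mated arrays 8.07, 7.99, 8.14, 8.17 and 8.17. Control male heads fell into 3 low and 2 high arrays, and the courted and mated arrays lay within or just above the control range. The means were 7.86 ± 0.44, 8.13 ± 0.28 and 8.11 ± 0.08 (SD, n = 5 each). The spread among mated arrays was also small in dChip PM (SD 0.08 against 0.34 in control) and MAS5.0 (0.07 against 0.37), which were computed from the same arrays. These spreads were not tested against each other. Of all probe sets above the threshold, 2.8% to 14.7% had their lowest or highest value on a given mated array. This share was 8.99% to 28.7% for control and 7.47% to 39.5% for courted arrays.

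For *rut*, the log2 fold change of courted against control male heads was 0.28 (SE 0.08, interval 0.08 to 0.48), or 1.21-fold, with higher values in 4 of 5 pairs. Its unadjusted p in limma was 0.0141 and its adjusted p 0.988. Without replicate 4 the log2 fold change was 0.25 (SE 0.09, unadjusted p = 0.0389 in limma), in MAS5.0 it was 0.23 (SE 0.10, unadjusted p = 0.0465) and in dChip PM 0.14 (SE 0.06, unadjusted p = 0.0567). The low unadjusted p rested on treating arrays of the same number as pairs, since without the pairs the same log2 fold change had an SE of 0.20 and an unadjusted p of 0.205 in limma. The value for mated against control male heads was 0.25, with a wider interval of -0.12 to 0.62 (SE 0.16, adjusted p = 0.604 in limma), and it ran from 0.145 without replicate 1 to 0.406 without replicate 2. Mated and courted male heads differed by -0.03 (SE 0.12, interval -0.32 to 0.26), and by -0.07 (SE 0.14) without replicate 4. The comparisons with control share the same 5 control arrays, so the values of *rut* in courted and mated males are not independent of each other.

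*Nf1*, the Ras GTPase-activating protein, was measured by 3 probe sets above the threshold, and they did not give 1 direction after mating. The brightest, 1625048_at, varied little, with levels of 11.39, 11.36, 11.26, 11.42 and 11.40 in control, 11.51, 11.30, 11.46, 11.67 and 11.27 in courted and 11.65, 11.41, 11.46, 11.46 and 11.42 in mated male heads. Its mated values were above the control value in 5 of 5 pairs, by a mean log2 fold change of 0.11 (SE 0.05, interval -0.02 to 0.23, adjusted p = 0.529 in limma). The difference was smaller in dChip PM, with 0.03 (SE 0.05) and higher mated values in 3 of 5 pairs, and in MAS5.0, with 0.05 (SE 0.06) in 4 of 5 pairs. The highest of the 15 was courted replicate 4, followed by mated replicate 1.

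The other *Nf1* probe sets, 1634083_at and 1628651_a_at, had log2 fold changes of -0.12 (SE 0.09) and -0.07 (SE 0.11) in mated against control male heads. Between mated and courted males, 1634083_at was lower in mated males in 5 of 5 pairs, since the courted levels of 10.77, 10.60, 10.26, 10.58 and 10.51 stood against mated levels of 10.68, 10.35, 10.15, 10.51 and 10.42. The log2 fold change was -0.12 (SE 0.05, interval -0.23 to -0.01), with an unadjusted p of 0.0428 and an adjusted p of 0.982 in limma. It was -0.13 (SE 0.05) without replicate 4 and -0.04 (SE 0.05) in dChip PM, and in a fit with no pairs its SE was 0.11 (unadjusted p = 0.301 in limma). In the same comparison, the brightest probe set had 0.04 (SE 0.07) and, without replicate 4, 0.10 (SE 0.05). In courted against control male heads, the 3 probe sets had log2 fold changes of 0.07 (SE 0.07), 0.00 (SE 0.10) and -0.05 (SE 0.09), and of 0.03 (SE 0.07), 0.05 (SE 0.11) and -0.02 (SE 0.10) without replicate 4. Over the 15 arrays, 1625048_at had a Pearson's r of 0.19 with 1634083_at (Spearman's rho 0.20, permutation p = 0.498 and 0.474) and of -0.10 with 1628651_a_at (rho -0.19, permutation p = 0.737 and 0.487). The latter probe sets had an r of 0.60 with each other (rho 0.56, permutation p = 0.0186 and 0.0336, adjusted p = 0.0609 and 0.151 over 9 relations). That relation rested on courted replicate 3 and mated replicate 3, without which r was 0.24 (rho 0.32, permutation p = 0.434 and 0.28 over 13 arrays).

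*Fmr1*, the fly homologue of the human fragile X gene and a repressor of translation, had 2 probe sets, of which 1634028_s_at was above the threshold. Its levels were 8.62, 8.27, 7.89, 8.51 and 8.23 in control, 8.58, 8.19, 8.45, 8.74 and 8.33 in courted and 8.61, 8.04, 8.37, 8.26 and 8.12 in mated male heads. Mated and control male heads differed by -0.02 (SE 0.11, interval -0.27 to 0.23). Courted against control male heads had 0.15 (SE 0.10, interval -0.09 to 0.40), and 0.14 (SE 0.12) without replicate 4. Without replicate 3, whose control array had the lowest level, it was 0.051. Mated male heads were below courted ones in 4 of 5 pairs, by -0.18 (SE 0.08, interval -0.37 to 0.01). The unadjusted p was 0.062 and the adjusted p 0.982 in limma. Without replicate 4, the paired difference was -0.10 (SE 0.06). In a fit with no pairs over all arrays of both groups, the SE was 0.12 (unadjusted p = 0.185 in limma). By dChip PM, the courted values were above control in 5 of 5 pairs, with 0.14 (SE 0.06, unadjusted p = 0.040 and adjusted p = 0.847 in limma).

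The second *Fmr1* probe set, 1632612_s_at, was below the threshold, with mean levels of 4.36 ± 0.22 in control, 4.11 ± 0.63 in courted and 4.29 ± 0.26 in mated male heads (SD, n = 5). On the array of courted replicate 4, the *Fmr1* probe sets went opposite ways, since 1634028_s_at had its highest level of the 15 arrays there, 8.74, and 1632612_s_at its lowest, 3.42. The same was seen in dChip PM, with 8.55 and 6.17, and in MAS5.0, with 8.67 and 3.51.

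**Figure D2:**
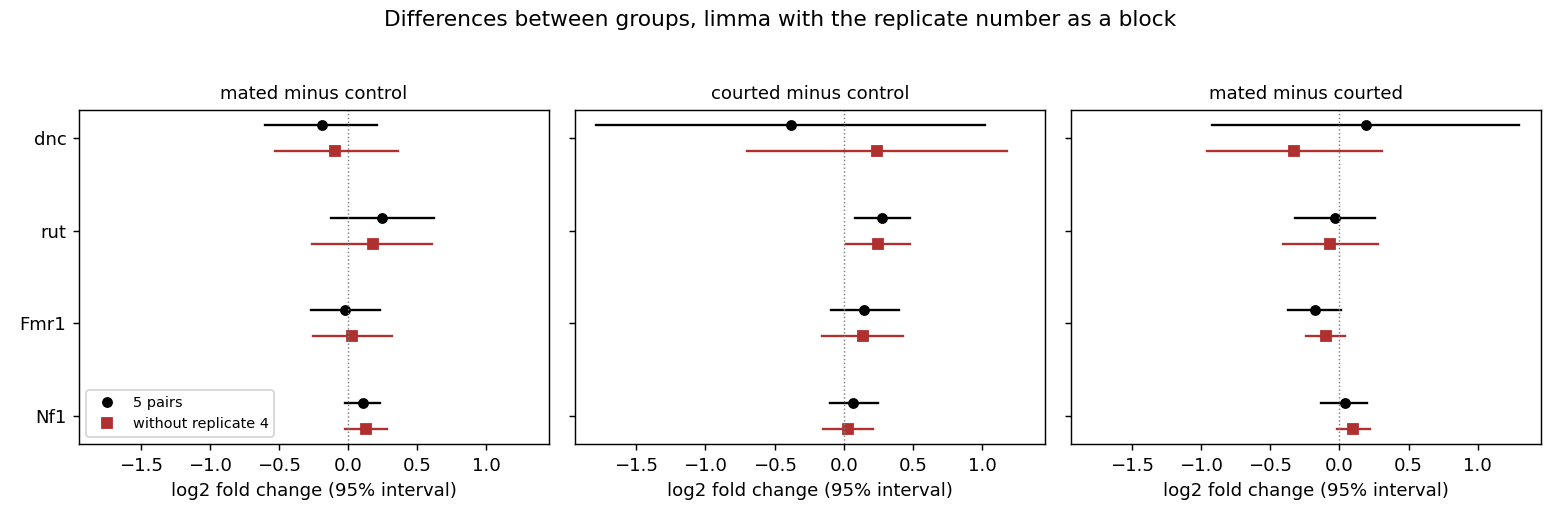
log2 fold change (horizontal axis) of the 4 tested genes in 3 comparisons, by limma with the replicate number as a block. Points are estimates and lines 95% intervals, in black for 5 pairs and in red without replicate 4. The *dnc* estimate crosses 0 in both courted comparisons when replicate 4 is left out, and the *rut* interval stays above 0 in courted minus control.

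After adjustment over all probe sets tested (limma, Benjamini-Hochberg), 0 of the 4 genes, each counted by its brightest probe set, passed 0.05 in mated against control male heads, nor did any of the 7621 probe sets (0.0%). At an unadjusted p under 0.05, 0 of the 4 were called, where 9.59% of all probe sets were. For courted against control, 0 of 4 passed the adjusted threshold (0.0% of 7637 probe sets), and 1 of 4, *rut*, had an unadjusted p under 0.05, where 3.3% of all did, or 4.07% without replicate 4. For mated against courted, 0 of 4 passed either threshold, where 0.0% of 7636 passed the adjusted and 3.37% the unadjusted one, or 4.01% without replicate 4. The groups did not overlap for 0 of the 4 genes in each comparison, against 1.43%, 0.524% and 0.943% of all probe sets in the same order. In mated against control male heads, 9 probe sets passed after adjustment with limma-trend. A regularized paired test, the kind that the paper's methods name (Cyber-T), passed 37, and a paired test without regularization passed 0. With each of these tools 0 of the 4 genes passed in each comparison.

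Over all 15 arrays, *dnc* was the gene of the 4 whose level had the highest correlation with the 5'-3' index, and without the 2 arrays farthest from the median index it was *rut*. For *dnc*, Pearson's r was 0.69 over the 15 arrays (permutation p = 0.00078, adjusted p = 0.00702 over 9 relations), and its Spearman's rho was 0.69 (permutation p = 0.00621, adjusted p = 0.0559). Among the probe sets above the threshold, 93.4% had a lower r. Without the arrays farthest from the median index, courted replicate 4 and control replicate 2, r was 0.52 (rho 0.52, permutation p = 0.0677 and 0.0704, n = 13), so the relation rested in part on those arrays. Each group has only 5 arrays, too few for an r within it. With the index as a covariate, chosen after seeing the data, the log2 fold change of *dnc* was -0.33 (SE 0.26) in mated against control, 0.17 (SE 0.25) in courted against control and -0.37 (SE 0.16, unadjusted p = 0.065 in limma) in mated against courted male heads. The part of RNA quality in the *dnc* levels was not tested beyond these values.

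*rut* had an r of 0.07 with the index (rho 0.46, permutation p = 0.769 and 0.0843), which became 0.64 without the same 2 arrays (rho 0.77, permutation p = 0.0203 and 0.00335, n = 13). The brightest *Nf1* probe set ran the other way, with an r of -0.59 (permutation p = 0.0203, adjusted p = 0.0609) and a rho of -0.34 (permutation p = 0.218), and r was -0.37 without the same arrays. *Fmr1* had an r of -0.49 (permutation p = 0.062) and a rho of -0.44 (permutation p = 0.101). Among the probe sets above the threshold, 12.9% had a lower r than this *Nf1* probe set and 22.4% a lower r than *Fmr1*. With the index as a covariate, the log2 fold change of *rut* in courted against control male heads was 0.25 (SE 0.09, unadjusted p = 0.0268 in limma).

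**Figure D3:**
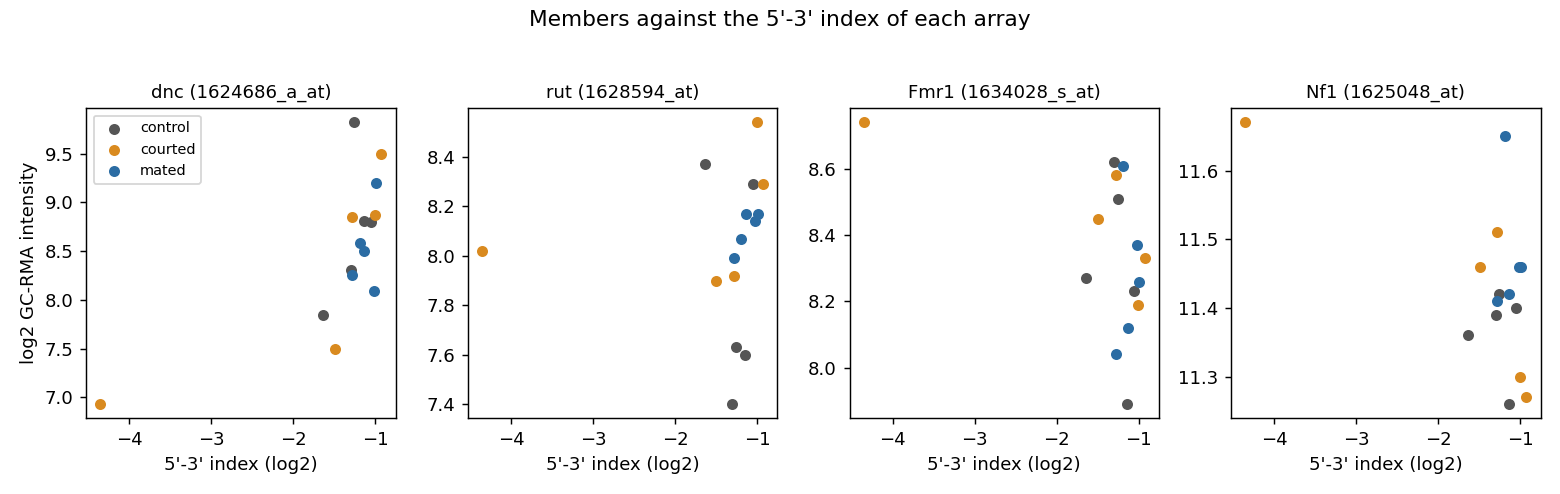
log2 GC-RMA intensity (vertical axis, a separate scale for each gene) against the 5'-3' index of the array (horizontal axis, log2; lower values mean less signal from 5' ends), 1 point per array, coloured by group. Courted replicate 4 lies alone at -4.35, and *dnc* is lowest and *Fmr1* and *Nf1* are highest there.

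Among named genes outside the lists used here, the transcript whose level ran most closely with *dnc* was *SF1*, which encodes a splicing factor, with an r of 0.97 over the 15 arrays and 0.95 without courted replicate 4. *SF1* lay between 8.92 and 10.17. The closest to *rut* was *CG2201* (r = 0.92 with and without that array), the closest to *Fmr1* was *schlank*, a ceramide synthase (0.90 and 0.88), and the closest to *Nf1* was *CG31915* (0.91 and 0.87). These are the highest of many correlations, both genes of each pair were measured in the same RNA on the same arrays, and they are given as a description.

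*orb2* and *CrebB*, which act at later steps of memory, were dim. *orb2*, a translational regulator needed for long-term courtship memory, had GC-RMA levels between 2.60 and 3.84, and those of the brighter *CrebB* probe set, 1631345_at, lay between 2.79 and 3.37. In dChip PM, *orb2* had levels of 6.11, 5.88, 6.0, 6.96 and 6.61 in control, 6.25, 6.94, 5.43, 5.86 and 7.11 in courted and 6.51, 5.88, 6.25, 7.01 and 6.72 in mated male heads. Mated values were above control in 5 of 5 pairs, in pair 2 by less than the rounding, and the log2 fold change was 0.16 (SE 0.07, interval 0.01 to 0.31), with an unadjusted p of 0.0419 and an adjusted p of 0.495 in limma. The groups overlapped, because pairs 4 and 5 were high and pair 2 low in both. Courted against control male heads differed by 0.00 (SE 0.30, interval -0.71 to 0.72), and by 0.28 (SE 0.24) without replicate 4.

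For *CrebB*, the fly homologue of the memory factor CREB, 1631345_at had dChip PM levels between 6.49 and 6.86 in control, 6.27 and 6.96 in courted and 6.57 and 7.22 in mated male heads. Mated against control gave a log2 fold change of 0.17 (SE 0.09, interval -0.05 to 0.39, adjusted p = 0.583 in limma). The second probe set, 1635570_a_at, had 6.10, 6.20, 5.91, 6.28 and 6.66 in control and 6.57, 6.42, 6.41, 6.57 and 6.52 in mated male heads, which made 0.27 (SE 0.09, unadjusted p = 0.0205 and adjusted p = 0.438 in limma), with higher mated values in 4 of 5 pairs. Its courted levels were 6.41, 6.77, 5.96, 5.55 and 6.75. Without replicate 4, its courted against control value was 0.25 (SE 0.10, unadjusted p = 0.0368 and adjusted p = 0.981 in limma). Mated and courted male heads then differed by 0.01 (SE 0.14). For 1631345_at without replicate 4, these values were 0.07 (SE 0.09) and 0.08 (SE 0.16). Both *CrebB* probe sets were lowest of the 15 arrays in courted replicate 4, at 6.27 and 5.55. In GC-RMA, where both lay far below the threshold, their group means were between 2.50 and 3.0.

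Across the 6 genes above the dChip PM threshold, each counted by its brightest probe set in GC-RMA, 1 (*orb2*) had an unadjusted p under 0.05 in mated against control male heads. Of all probe sets, 9.78% did. The second *CrebB* probe set, also under 0.05 there, was not counted. In courted against control the count was 1 (*Fmr1*), where 5.54% of all probe sets were under 0.05. Without replicate 4 the *Fmr1* value was 0.11 (SE 0.06, unadjusted p = 0.0966 in limma). In mated against courted the count was 0, where 8.18% of all probe sets were under 0.05. None of the 6 passed the adjusted threshold in these comparisons, in which 0.0% of all probe sets did. *amn*, whose neuropeptide acts on the mushroom bodies from a small number of neurons, was near the lower end of the scale on all arrays, between 2.52 and 2.61 in GC-RMA and between 3.89 and 4.76 in dChip PM. No difference of *amn* between groups was measurable at these intensities.

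**Figure D4:**
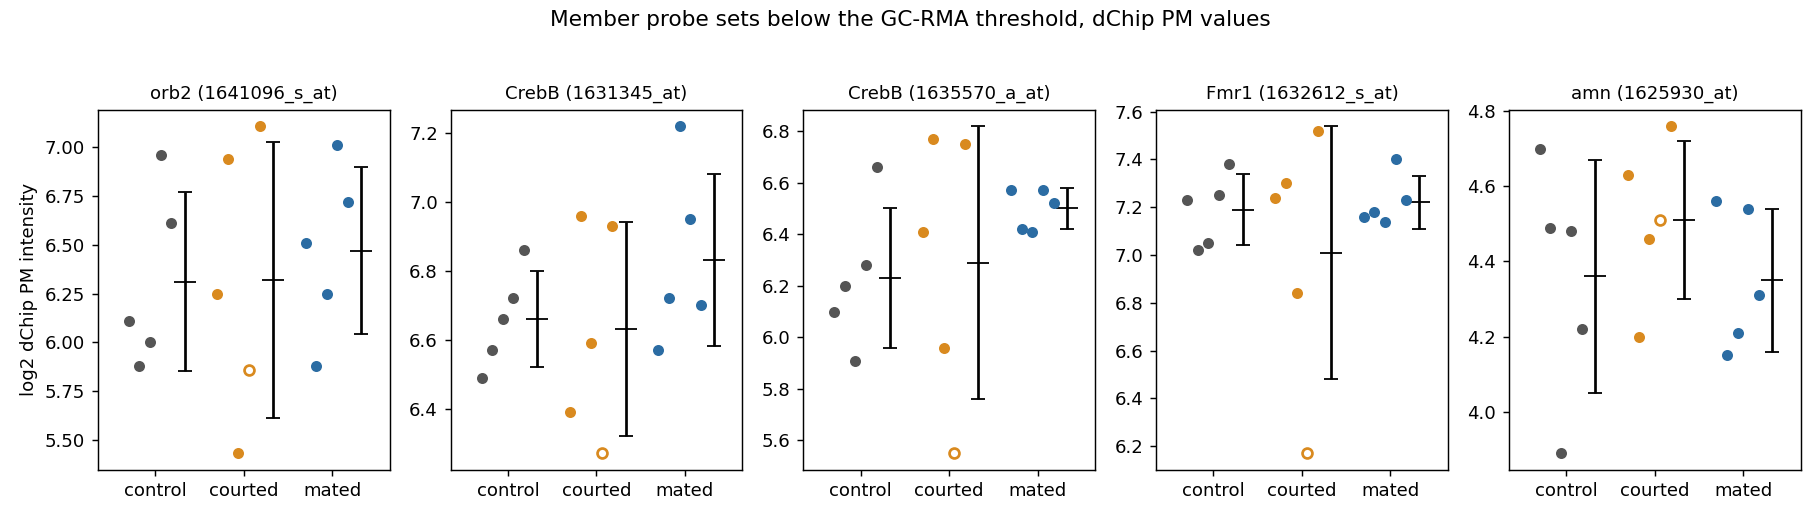
log2 dChip PM intensity (vertical axis, a separate scale for each probe set) of the 5 probe sets that were below the GC-RMA threshold, on each array of control, courted and mated male heads, with replicates 1 to 5 from left to right and the group mean and SD (n = 5) as a bar. The open circle is courted replicate 4, which is the lowest array for both *CrebB* probe sets and for 1632612_s_at of *Fmr1*.

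Other genes of the same pathways were sorted into 9 lists with 92 genes, of which 73 had a probe set of their own and 52 were above the threshold. In mated against control male heads, 0 of the 52 passed the adjusted threshold in limma. At an unadjusted p under 0.05, 4 were higher and 2 were lower in mated males (11.5%, against 9.59% of all probe sets), and the median log2 fold change was 0.02 against -0.01 over all probe sets. The 4 genes with the lowest p were *Hr38*, a nuclear receptor whose transcript is induced by neuronal activity (0.27, SE 0.07), the clock gene *per* (-0.27, SE 0.08), the NMDA receptor subunit *Nmdar1* (0.13, SE 0.04) and the phosphatase *csw*, which acts in Ras signalling (0.16, SE 0.06). Their adjusted p in limma were 0.388, 0.458, 0.495 and 0.497.

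Of the 11 tested genes for synthesis and breakdown of cAMP, 0 had an unadjusted p under 0.05 in any of the 3 comparisons over all arrays, and the list's median was 0.02 in mated against control. The same held for the 4 tested genes of PKA subunits and anchors (median 0.04), the 5 of calcium signalling (0.03) and the 8 of translational control (0.00). Among the 8 tested receptors, 2 had an unadjusted p under 0.05 with higher values in mated male heads, *Nmdar1* and the dopamine receptor *Dop2R*. Of 3 tested genes of CREB cofactors and transcription it was 1, *Hr38*, and of 4 of Ras and MAPK signalling it was *csw* with a higher and the kinase *Dsor1* with a lower value. Of 7 other learning genes it was *per*, and of 2 tested genes of courtship circuitry it was 0.

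When courted were compared with control male heads, the number of the 52 with an unadjusted p under 0.05 in limma was 0, where 3.3% of all probe sets did, and the median was 0.04 against 0.00 over all. The lowest p belonged to the serotonin receptor *5-HT7* (0.16, SE 0.07), the phosphodiesterase *Pde8* (0.22, SE 0.10), *Hr38* (0.29, SE 0.15) and the kinase subunit *Pka-C3* (0.21, SE 0.12), each with an adjusted p of 0.988. Without replicate 4, these values were 0.13 (SE 0.08), 0.14 (SE 0.09), 0.10 (SE 0.07) and 0.15 (SE 0.13). In that fit, 2 of the 52 had an unadjusted p under 0.05, where 4.07% of all probe sets did. These were *per* (-0.24, SE 0.07) and *rg*, a protein that anchors PKA (0.29, SE 0.12). In mated against courted male heads over all arrays, 2 of the 52 had an unadjusted p under 0.05 (3.85%, against 3.37% of all probe sets). They were *fru*, the transcription factor that specifies the male courtship circuit, with 0.25 (SE 0.05, adjusted p = 0.88 in limma), and the integrin *scb*, with -0.26 (SE 0.08, adjusted p = 0.982). *Pp2B-14D* (-0.13, SE 0.06) and *14-3-3zeta* (0.07, SE 0.04) came next. Without replicate 4, these values were 0.22 (SE 0.05) for *fru*, -0.18 (SE 0.05) for *scb*, -0.15 (SE 0.06) for *Pp2B-14D* and 0.08 (SE 0.04) for *14-3-3zeta*. In that fit, 3 of the 52 had an unadjusted p under 0.05, where 4.01% of all probe sets did. These were *fru*, *scb* and the translational repressor *pum* (0.13, SE 0.05).

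**Figure D5:**
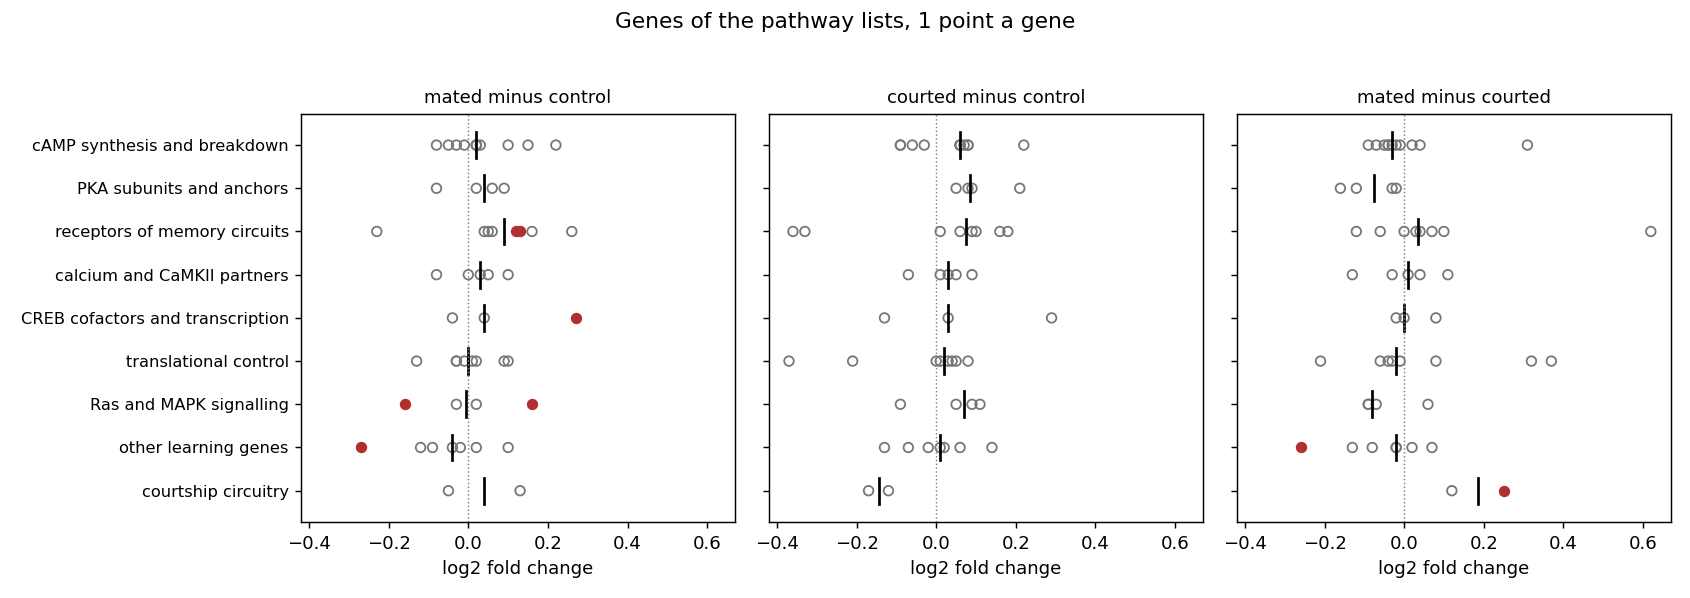
log2 fold change (horizontal axis) of the 52 tested genes in 9 pathway lists (rows) and 3 comparisons (panels), 1 point per gene, with the list's median as a vertical line. Filled red points have an unadjusted p under 0.05 in limma, 6 in mated minus control, 0 in courted minus control and 2 in mated minus courted.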

How the data were processed

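The authors deposited linear intensities per probe set for each array of control, courted and mated male heads, made by 5 algorithms: R/Bioconductor GC-RMA, GeneSpring GC-RMA, MAS5.0, and dChip with perfect match probes (PM) or differences to mismatch probes (PM-MM). GCOS was version 1.2, and for other programs no version was given in the sources used here. All 5 sets of values from one array made 1 replicate. The GeneSpring values, empty at place 3092, were moved up by 1 place below it (correlation with R/Bioconductor GC-RMA 0.173 before and 0.988 after). Of 18952 probe sets, 183 controls were left out, and 13646 of the rest were assigned to 1 gene, 402 to several and 4721 to none.

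Intensities below 1 were raised to 1 before log2 was taken. Probe sets with a mean above 100 over the arrays compared (50 for dChip) were tested on the 10 arrays of a comparison in limma 3.58.1 (R 4.3.3, lmFit and eBayes) at 0.05, blocked by replicate number, with p adjusted by Benjamini-Hochberg over the probe sets tested. The brightest probe set stood for a gene in counts. The methods collected control and mated males as pairs. Deviations from the group means in mated and control arrays of the same number had correlations of 0.331, 0.461, 0.479, 0.431 and 0.089, and those in courted and control arrays 0.148, -0.257, 0.182, -0.307 and 0.325. Between mated and courted arrays, these correlations were 0.042, -0.451, 0.164, -0.444 and 0.008. As the courted numbers may not mark pairs, fits without the block are given for *dnc*, *rut*, *Fmr1* and an *Nf1* probe set. They are not given for list genes such as *fru* and *scb*, or for dChip PM values. Low unadjusted p of these in comparisons with courted males may rest on the pairs. The fits were tested on simulated data. Correlations over arrays used 100000 two-sided permutations (Python 3.11.15, scipy 1.17.1). Alternatives were the other algorithms and their mean, other filters, an offset of 16, median centring, other tests, 1 fit to all 15 arrays, the mean of a gene's probe sets and each replicate left out. The index as a covariate, the fit without courted replicate 4 alone, and the list genes and dChip PM values without replicate 4 were added after seeing the data.

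The genes and lists were chosen with earlier results of these data known. Named were all members, the 4 genes of the pathway lists with the lowest p in each comparison, and for each member above the threshold the gene outside the lists with the highest correlation. *Dop2R*, *Dsor1*, *rg* and *pum* were named after their values were seen. Gene names are from the array annotation, and no coordinates were used.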

Additional observations from a re-analysis of the deposited data

Results flagged for a closer look

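Of 36 groups of 5 arrays (11 probe sets and the 5'-3' index, each in 3 groups), 7 held a value far from the other 4, where chance flags about 1 in 20 groups. The 5'-3' index of courted replicate 4 was -4.35, against -1.49 to -0.93 in the other courted arrays. For *Nf1*, 1625048_at was at 11.65 in mated replicate 1 (11.41 to 11.46 in the others), and 1628651_a_at at 8.29 in mated replicate 3 (8.63 to 8.75). The other 4 lay far below the intensity threshold. 1631345_at of *CrebB* was at 3.26 in control replicate 5 and at 3.37 in courted replicate 2, and 1635570_a_at of *CrebB* was at 2.92 in control replicate 5. *amn* was at 2.61 in courted replicate 3.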

How the results depend on the processing

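Under the alternatives run, 0 members passed the adjusted threshold in any comparison, and of 291 recomputed fold changes 263 kept their direction. Many of the 291 could not turn. For members above the GC-RMA threshold, the other filters, the other tests, the fit to all 15 arrays and the fit without the block on the same arrays left the fold change itself unchanged. The members with an unadjusted p under 0.05 in mated against control numbered 1 in dChip PM (*orb2*) and 1 after median centring (*Nf1*), and 0 to 1 when a replicate was left out (*rut* without replicate 2, *Fmr1* without replicate 3). Over all probe sets, the counts in these settings were 1525 of 15591, 703 of 7621, 665 of 7607 and 494 of 7630. In courted against control the members numbered 2 in dChip PM-MM (*rut* and *Fmr1*) and 0 without the replicate block, in the fit to all 15 arrays with the block, in the regularized paired test and without courted replicate 4 in a fit with no block. Over all probe sets, the counts in these settings were 506 of 10211, 181 of 7637, 383 of 7631, 166 of 7637 and 181 of 7626. In mated against courted the members numbered 0 to 1 when a replicate was left out (*Fmr1* without replicate 1, where 186 of all 7636 probe sets were called). The fit without the replicate block moved no other count of members.

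The direction turned in the other 28. In mated against control, *Fmr1* had 0.089 in MAS5.0, 0.037 in dChip PM-MM, 0.044 in dChip PM, 0.024 in the mean of the data sets, 0.063 with the index as a covariate and -0.149 to 0.033 with a replicate left out. *dnc* had 0.006 in dChip PM and 0.041 in dChip PM-MM, *Nf1* -0.028 as the mean of its probe sets and *CrebB* -0.007 in unfiltered GC-RMA. In courted against control, *dnc* had 0.174 with the index as a covariate and -0.738 to 0.241 with a replicate left out, where only the fit without replicate 4 was positive. *CrebB* had 0.034 in unfiltered GC-RMA and *orb2* -0.023 in dChip PM-MM. In mated against courted, *dnc* had -0.371 with the covariate, -0.158 without courted replicate 4 and no block, and -0.327 to 0.49 with a replicate left out. *Nf1* had -0.077 in MAS5.0, -0.008 in dChip PM-MM, -0.015 in dChip PM, -0.005 in the mean of the data sets and -0.035 as the mean of its probe sets. *rut* had 0.025 in dChip PM, 0.012 in dChip PM-MM and -0.096 to 0.104 with a replicate left out, and *CrebB* -0.041 and *orb2* -0.105 in unfiltered GC-RMA. The cause of these changes was not tested. The further *Nf1* probe sets turned sign in 20 of 108 other values, all between -0.194 and 0.064.

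The count of all probe sets with an unadjusted p under 0.05 also moved. In mated against control it was 731, and 252 with the covariate, 458 without replicate 4 and 1525 in dChip PM. In courted against control it was 252, and 145 without replicate 3, 419 with the covariate and 861 in dChip PM, and in mated against courted 257, and 172 in the regularized test, 386 with the covariate and 1264 in dChip PM. *orb2*, *CrebB* and *amn* lay below the GC-RMA threshold, and the precision was limited by the 5 arrays per group.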
